A study of Arabidopsis thaliana with 48 samples.

Results

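Photosynthetic electron transport runs through photosystem II, the cytochrome b6f complex, plastocyanin, photosystem I, ferredoxin and ferredoxin-NADP reductase, and the proton gradient that it builds drives the chloroplast ATP synthase. The reaction centre proteins are encoded in the chloroplast, whereas many surrounding subunits and all of the soluble carriers are encoded in the nucleus and imported. The 35 genes described here are nuclear loci for such subunits, taken by locus identifier, with transcripts and lanes summed, and by a rule that uses no measured value. They comprise 12 genes of photosystem I, 12 of photosystem II, 8 of the carriers (cytochrome b6f, plastocyanin, ferredoxin and ferredoxin-NADP reductase) and 3 of the ATP synthase. All 35 were found among the 33602 loci counted, and all 35 passed the filter on low counts in every fit.

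Leaf RNA of Arabidopsis thaliana, ecotype Columbia with no added transgene or mutation in the labels, was sequenced in 12 groups of 2 biological replicates. Plants were 6 weeks old at harvest and had last grown with a 10 h photoperiod, 23°C days and 5°C nights. Light is the photon flux density in µmol per square metre per second. Growth light took 4 groups, raised at light 100, 250, 450 or 700 and labelled day 0.583. Time of day took 6 groups raised at light 250, with the labels day 0.083, 0.25, 0.375, 0.625, 0.75 and 0.916. In 2 step groups plants moved from light 100 to light 700 and are labelled day 0.6 and day 2.57. The protocol gives the step a length of about 20 h, which is hard to match with day 2.57. The days of the step are therefore used as names only. The time of day of the step harvests is then not certain. Against growth light, the step and the time of day therefore cannot be told apart. Between 4 and 6 plants were extracted one by one and their RNA pooled at random into the replicates, so the p-values measure the spread between pools.

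Total counts per replicate lay between 20418095 and 36331053, and the 35 genes took from 2.60% to 6.70% of them. Levels are CPM, a count scaled to the size of its library, after a common scaling of all 24 replicates. Differences were tested with edgeR, with p-values adjusted over all loci tested and a threshold of 0.05. The replicates of day 0.916 stood furthest apart: the summed level of the 35 genes was 24650 CPM in one and 38781 in the other. The replicates of light 450 were also apart, at 41525 and 31126 CPM. The leaf label held against markers: RBCS1A, a Rubisco small subunit gene, stood between 7020 and 26300 CPM, and of 4 root genes EXPA7, COBL9 and TIP2;3 were at 0 in 21, 14 and 15 replicates. The other root gene, PYK10, was detected in all replicates, from 1.13 to 37.5 CPM. The summed flower genes lay between 1.04 and 2.98 CPM. In whole leaves, fewer cells of a type and less RNA per cell cannot be told apart.

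The promoter stretches of 5 genes that the results turn on are shown first, because these genes moved far, moved in opposite directions, or differed between copies. PSAD2, which moved further than its copy PSAD1, is not shown, and its window of 250 bases lay wholly within exons of other genes. The PSBQ1 stretch is 150 bases long and the others are 250. They were read from RefSeq assembly TAIR10.1, upstream of the annotated gene start and on the gene's strand. Capitals mark 3 of the motifs searched: the G-box CACGTG, which bZIP and bHLH factors of light signalling bind, the I-box GATAAG and the TATA box TATAAA, on either strand.
PSAD1 at chr4:1230165-1230414, minus strand, upstream of the gene for subunit D of photosystem I:
PSAD1: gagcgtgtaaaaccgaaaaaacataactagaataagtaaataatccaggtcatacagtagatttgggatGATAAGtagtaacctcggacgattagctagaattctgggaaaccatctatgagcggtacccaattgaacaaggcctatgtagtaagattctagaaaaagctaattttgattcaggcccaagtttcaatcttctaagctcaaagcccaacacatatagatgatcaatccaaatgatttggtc
PSBQ1 at chr4:11334202-11334351, plus strand, and PSBQ2 at chr4:2673244-2673493, minus strand, upstream of both genes for the Q subunit of the oxygen-evolving complex:
PSBQ1: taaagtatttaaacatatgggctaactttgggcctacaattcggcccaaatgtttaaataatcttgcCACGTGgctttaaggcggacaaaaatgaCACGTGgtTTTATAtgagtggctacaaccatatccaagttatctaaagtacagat
PSBQ2: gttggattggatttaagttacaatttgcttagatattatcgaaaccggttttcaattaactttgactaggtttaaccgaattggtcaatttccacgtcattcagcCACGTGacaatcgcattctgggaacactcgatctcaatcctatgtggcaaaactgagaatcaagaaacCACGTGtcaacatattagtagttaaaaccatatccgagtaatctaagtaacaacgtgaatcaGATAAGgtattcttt
PSB28 at chr4:14149599-14149848, plus strand, upstream of the gene for an assembly factor of photosystem II:
PSB28: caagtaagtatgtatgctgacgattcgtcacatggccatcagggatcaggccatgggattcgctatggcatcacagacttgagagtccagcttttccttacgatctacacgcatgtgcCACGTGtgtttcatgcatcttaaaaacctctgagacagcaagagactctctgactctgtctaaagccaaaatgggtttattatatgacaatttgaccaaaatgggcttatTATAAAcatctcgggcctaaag
FD2 at chr1:22444057-22444306, plus strand, upstream of the gene for the main leaf ferredoxin:
FD2: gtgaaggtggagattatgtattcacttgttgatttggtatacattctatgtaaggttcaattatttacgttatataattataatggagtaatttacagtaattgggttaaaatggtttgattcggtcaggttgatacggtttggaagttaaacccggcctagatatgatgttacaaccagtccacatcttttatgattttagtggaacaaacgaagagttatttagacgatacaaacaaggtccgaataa
The PSBQ1 and PSBQ2 stretches each held 2 G-boxes and the PSB28 stretch 1. The PSAD1 stretch held 1 I-box, and none of the 5 motifs was in the FD2 stretch.

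Over the 250 bases before each gene, 7 of the 35 genes held a G-box, 20.0% against 6.49% of 27443 promoters of that length. They were PSAE2, PSAH2, PSBQ1, PSBQ2, PSBTN, PSB28 and ATPD. The I-box was in 9 of 35 (25.7% against 12.3%) and the TATA box in 18 (51.4% against 47.3%). The evening element AAATATCT was in 1 gene, ATPC1 (2.86% against 4.79%), and the CCA1 binding site AAAAATCT in 2, PSAN and PSAO (5.71% against 6.69%). Of the 35 windows, 18 reached into exons of other genes and 3 lay wholly within them. Both strands were searched, and in PSAO the CCA1 site shared a base with a TATA box. A match is a description of these letters and not a binding site.

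Growth light. The levels of nearly all 35 genes were lower in leaves grown at light 450 and 700 than at light 100. At light 700, 33 genes had fallen and none had risen, where 40.0% of all loci tested passed the threshold, 19.7% upward and 20.3% downward. All 12 photosystem I genes, all 12 photosystem II genes, 7 of 8 carriers and 2 of 3 ATP synthase genes were among the 33. The median log2 change of the 35 genes was -0.90, against -0.005 over all loci tested. At light 450, 34 genes had fallen (43.7% of all loci called, 22.3% downward) with a median of -1.06. The genes outside these counts were FD1, a minor leaf ferredoxin, at both light levels, and ATPG, a subunit of the membrane part of the ATP synthase, at light 700. FD1 differed from light 100 by 0.01 ± 0.13 at light 450 and 0.21 ± 0.13 at light 700 (log2 ± SE, edgeR adjusted p = 0.95 and 0.219). FD1 depended on the light 450 replicates: without replicate 1 it was lower at light 450, without replicate 2 it was higher, and without either it was higher at light 700. ATPG differed by -0.27 ± 0.10 at light 700 (edgeR adjusted p = 0.0558).

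Summed over the 12 genes, photosystem I transcripts stood at 26517 and 26880 CPM at light 100, 21160 and 20915 at light 250, 14539 and 10574 under light 450, then 13998 and 13222 under light 700. The photosystem II sum was 29356 and 30724 CPM at light 100 and 17543 and 16302 at light 700. The ATP synthase sum changed over a smaller range, from 3757 and 3758 CPM to 2778 and 2596. In each of these sums both replicates of light 100 lay above all replicates of light 450 and 700, and the sums at light 450 and 700 overlapped. Gene by gene, the replicates did not overlap with those of light 100 for 30 of the 35 genes at light 250, 34 at light 450 and 35 at light 700, against 66.2%, 70.3% and 71.6% of all loci.

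PSAN, a photosystem I subunit on the lumen side, fell furthest within photosystem I. PSAN stood at 2144 and 2357 CPM at light 100, 1560 and 1595 at light 250, 907 and 624 at light 450, then 916 and 818 at light 700. The change at light 700 was -1.38 ± 0.15 on the log2 scale, a 2.61-fold lower level (edgeR adjusted p = 2.08e-05). PSBTN, a small lumenal protein of photosystem II, fell furthest within photosystem II. PSBTN stood at 1312 and 1325 CPM at light 100, 914 and 883 at light 250, 621 and 331 at light 450, then 602 and 532 at light 700. Its change at light 450 was -1.48 ± 0.21 (edgeR adjusted p = 0.000149). The replicates of light 450 differed here by more than those of the other light levels. PSB27, a lumenal factor of photosystem II assembly and repair, had the largest fall already at light 250. PSB27 stood at 428 and 424 CPM at light 100, 258 and 245 at light 250, 187 and 130.5 at light 450, then 196 and 179 at light 700. At light 250 it was lower by 1.69-fold, a log2 change of -0.76 ± 0.13 (edgeR adjusted p = 0.00127). PSB28, another assembly factor, fell by less. PSB28 stood at 147 and 143 CPM at light 100, 111 and 103 at light 250, 88.1 and 67.8 at light 450, then 92.7 and 82.1 at light 700. Its change at light 700 was -0.74 ± 0.11 (edgeR adjusted p = 0.000256).

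The smallest falls among the photosystem genes at light 700 were those of PSBY, a small membrane subunit, at -0.47 ± 0.12, PSBR, which helps to hold the oxygen-evolving complex, at -0.48 ± 0.13, and PSAH1, a photosystem I subunit at the LHCII docking site, at -0.59 ± 0.11. Within the carriers, PETC, the Rieske protein of cytochrome b6f, changed by -0.40 ± 0.10 and PETM, a small subunit of the same complex, by -0.54 ± 0.11. For the ATP synthase, ATPD (delta subunit) changed by -0.99 ± 0.14 and ATPC1 (gamma subunit) by -0.41 ± 0.10. All of these passed the threshold, but PSBY, PSBR, PETC and ATPC1 missed it with total counts (edgeR adjusted p = 0.0578, 0.0553, 0.0758 and 0.0528). With 1 replicate of light 100 or 700 left out, PSBY missed it in 3 of 4 cases, PSBR and PETC in 2 (without replicate 2 of either light) and ATPC1 in 1 (without replicate 2 of light 700), with adjusted p-values from 0.0535 to 0.107. A slope on log2 of growth light was negative past the threshold for the 33 genes that fell at light 700 (37.8% of all loci called, 19.6% downward), with a median of -0.37 per doubling of light.

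At light 250, 13 genes had fallen (28.7% of all loci called, 14.4% downward), but this count depended on single replicates. Leaving out either replicate of light 100 gave 2 or 3, either of light 250 gave 2, either of light 700 gave 8, and either of light 450 gave 26, of which FD1 was higher. The comparisons with light 100 share its 2 replicates, so they are not independent of each other. With total counts in place of the common scaling, the median over all loci moved to 0.20 at light 700 and 73.2% of all calls were higher instead of 49.2%. Then 28 of the 35 genes were lower and FD1 was higher. At light 250 and 450 the shares of higher calls moved from 49.6% to 65.4% and from 49.0% to 74.4%, with 8 and 33 of the genes lower. The mesophyll markers RBCS1A, RCA and CA1 fell as well, 3 of 3 at light 700. Their summed level ran from 32500 to 32600 CPM at light 100, from 13600 to 19300 at light 450 and from 17400 to 19200 at light 700. Of the companion cell markers 2 of 2 were higher at light 700, with sums of 189 to 196 CPM at light 100 and 230 to 244 at light 700. Of 4 guard cell markers 1 was higher and 1 lower, with sums of 63.0 to 66.1 and 61.8 to 64.4 CPM. PYK10 changed by -3.07 on the log2 scale, past the threshold, with root sums of 12.8 to 24.5 and 1.87 to 2.62 CPM. The part of these markers in the result was not tested.

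**Figure D1:**
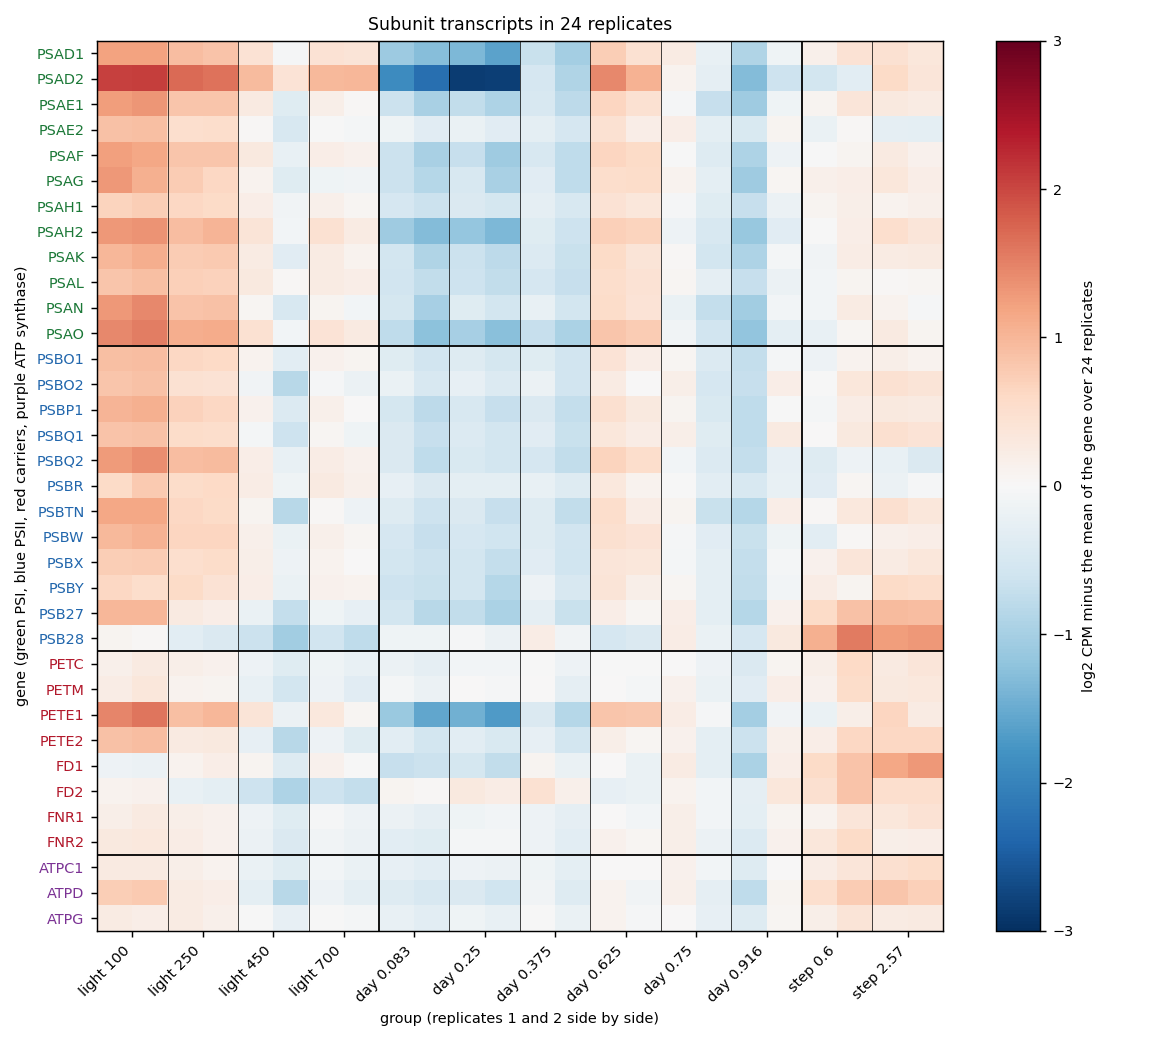
Each row is a gene and each column a replicate, with colour giving log2 CPM minus the mean of that gene over the 24 replicates. Light 100 is the highest group for 25 of the 35 genes, and the PSB28, FD1 and FD2 rows are highest after the step.

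Time of day. At light 250 the photosystem genes were highest at day 0.625 and low from day 0.083 to 0.375, while most carrier and ATP synthase genes changed less. Day 0.625 had the highest group mean for 29 of the 35 genes, all 12 of photosystem I and 11 of 12 of photosystem II among them. The share of all loci highest at that time point was not computed, and not all of the 29 genes passed the test below. In the test over all 6 time points, 19 of the 35 genes passed, close to the 60.0% of all loci tested that passed, so that count says nothing particular of these genes. The 19 comprised 11 of 12 photosystem I genes, 7 of 12 photosystem II genes and 1 of 8 carriers, and none of the 3 ATP synthase genes. The median range between time points was 0.96 on the log2 scale, against 0.85 over all loci. With each replicate of day 0.916 left out in turn the count was 29 or 30, without both it was 29, and without replicate 1 of day 0.625 it was 11.

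Between day 0.083 and day 0.625, 23 genes rose and none fell, where 41.9% of all loci passed the threshold and 19.9% passed it upward. They were all 12 photosystem I genes, 10 of 12 photosystem II genes and PETE1, a minor plastocyanin gene. The median change was 0.89, against -0.005 over all loci. The count was 14 without replicate 2 of day 0.083. Replicates did not overlap for 34 of the 35 genes, against 77.4% of all loci. Summed photosystem I transcripts went from 7446 and 6153 CPM at day 0.083 to 18301 and 16923 at day 0.625, and down to 6301 and 10771 at day 0.916. The carrier sum was 7607 and 7124 CPM at day 0.083 and 8701 and 8374 at day 0.625. The mesophyll marker sum lay from 19400 to 20400 CPM at day 0.083 and from 22100 to 22700 at day 0.625, and none of its 3 genes passed the threshold. Of 4 guard cell markers 2 were lower, of 2 companion cell markers 1 was higher, and PYK10 was lower; their part in the result was not tested.

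PSAD2 had the widest range of the 35 genes, 17.0-fold between group means, followed by PETE1 (5.17-fold) and PSAD1 (4.2-fold). From day 0.083 to 0.625 PSAD2 rose by 3.33 ± 0.26 on the log2 scale (edgeR adjusted p = 4.11e-06). PSAO, which takes part in LHCII docking at photosystem I, also had a wide range. PSAO through the time points was at 572 and 417 CPM (day 0.083), 493 and 410.1 (0.25), 609.6 and 509.8 (0.375), 1739 and 1655 (0.625), 903 and 656 (0.75) and 432 and 799 (0.916). Its rise was 1.78 ± 0.27 (edgeR adjusted p = 0.00043), and both replicates of day 0.625 lay above all others. At the other end, PETC and PETM spanned 1.16-fold and 1.08-fold between group means, and the 3 ATP synthase genes from 1.23-fold to 1.43-fold.

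PSB28 and FD2 had the reverse order: both were highest at day 0.375 and lowest at day 0.625. PSB28 through the time points was at 126 and 127 CPM (day 0.083), 134 and 124 (0.25), 163 and 128 (0.375), 97.2 and 103 (0.625), 161 and 120.1 (0.75) and 97.5 and 171 (0.916). The replicates of day 0.916 alone spanned almost the range of all time points. From day 0.083 to 0.625 PSB28 differed by -0.33 ± 0.23 and FD2 by -0.27 ± 0.19 on the log2 scale (edgeR adjusted p = 0.262 and 0.276), and neither passed the test over time points.

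Between day 0.25 and day 0.75, 8 genes rose and none fell (45.4% of all loci called, 21.5% upward). The share of the 35 genes that rose lay near that upward share, so the count of rises says nothing particular of these genes. The 8 were 6 photosystem I genes, PSB27 and PETE1. The calls for PSB27, PSAO, PSAF and PSAL were lost without either replicate of day 0.25 or replicate 1 of day 0.75. Those for PSAO and PSAF were also lost without either replicate of day 0.625. The PSAF call was lost without either replicate of day 0.083 or 0.375 too. With a replicate block PSAF missed the threshold as well (edgeR adjusted p = 0.0576). Replicates did not overlap for 24 of the 35 genes, also near the background of 73.6% of all loci. With total counts 21 rose, and 66.6% of the calls over all loci were higher instead of 47.3%. The count was 4 without either replicate of day 0.25 or replicate 1 of day 0.75, and 14 without either replicate of day 0.916 or without both. The leaves grown at light 250 in the light series, labelled day 0.583, summed to 58246 and 57305 CPM over the 35 genes, and those of day 0.625 to 51270 and 47048.

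**Figure D2:**
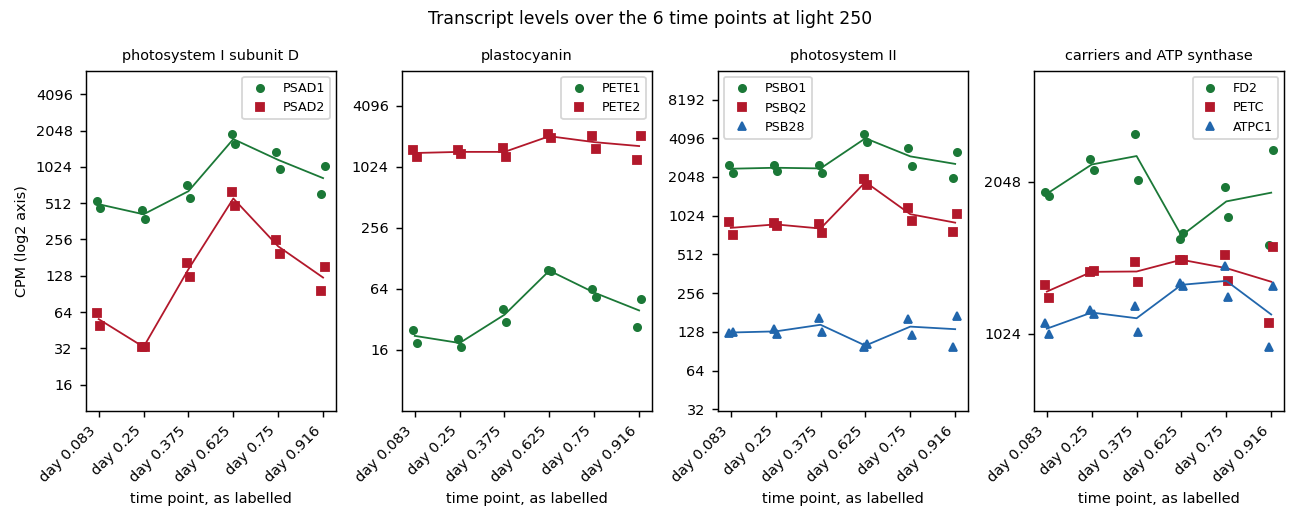
Points are the 2 replicates of each time point at light 250, on a log2 axis of CPM, and lines join group means. PSAD2 and PETE1 sit at their highest at day 0.625 and at their lowest at day 0.25, while FD2 is lowest at day 0.625.

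The step from light 100 to light 700. Under the common scaling most photosystem I transcripts stood close to the level of leaves grown at light 700, whereas cytochrome b6f and ATP synthase transcripts were near the level of light 100, and PSB28, FD1 and FD2 rose above both. Against light 100, 27 genes differed at step day 0.6, 24 lower and 3 higher (49.0% of all loci called, 24.0% downward and 25.0% upward). At step day 2.57, 25 differed, 22 lower and 3 higher (41.7% of all loci, 19.5% downward and 22.2% upward). All 12 photosystem I genes were lower on both days, with medians of -1.03 and -0.97. Of photosystem II, 10 genes were lower at day 0.6 and 9 at day 2.57. Replicates did not overlap with those of light 100 for 29 genes at day 0.6 (73.6% of all loci) and 32 at day 2.57 (73.1%). None of the 3 ATP synthase genes passed the threshold on either day, with log2 changes from -0.11 to 0.23.

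PSAD2 and PSBQ2 fell furthest. Against light 100, PSAD2 changed by -2.50 ± 0.12 at day 0.6 and -1.61 ± 0.11 at day 2.57 (edgeR adjusted p = 1.32e-08 and 3.09e-07). PSBQ2 changed by -1.59 ± 0.12 and -1.67 ± 0.12 (edgeR adjusted p = 4.71e-07 and 3.6e-07). PSB28 rose: it was at 147 and 143 CPM at light 100, 92.7 and 82.1 at light 700, 291 and 409.5 at step day 0.6 and 330.2 and 339 at day 2.57. All 4 step replicates were above all 4 growth light replicates. The rise over light 100 was 1.27 ± 0.14 and 1.20 ± 0.14 (edgeR adjusted p = 1.13e-05 and 2.42e-05), and over light 700 2.02 ± 0.14 and 1.95 ± 0.14, or 4.07-fold and 3.86-fold. FD1 rose over light 100 by 0.88 ± 0.11 and 1.38 ± 0.11, and FD2 by 0.56 ± 0.12 and 0.37 ± 0.12. The rise of FD2 at day 2.57 (edgeR adjusted p = 0.0281) missed the threshold without either replicate of light 100, light 700 or step day 2.57, with adjusted p-values from 0.0539 to 0.143.

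Of the 35 genes, 3 were above both growth lights in all 4 step replicates (PSB28, FD1 and FD2) and 5 were below both (PSAD2, PSAL, PSAO, PSBQ2 and PSBR). The share of all loci in these positions was not computed, so these counts are not set against a background. PSBR did not pass the threshold against light 700 on either day. PSAL, with PSAH and PSAO, forms the side of photosystem I at which LHCII docks. PSAL was at 4135 and 4362 CPM at light 100, 2774 and 2687 at light 700, 2199 and 2490 at step day 0.6 and 2381 and 2451 at day 2.57. Its difference from light 700, -0.20 ± 0.10 and -0.17 ± 0.10, did not pass the threshold. PSAO was at 2638 and 2833, 1298 and 1175, 841 and 1014 and 1171 and 1042 CPM in the same order, and at day 0.6 it was lower than at light 700 by 1.31-fold (-0.39 ± 0.12, edgeR adjusted p = 0.0139). That call was lost without replicate 1 of light 700 (adjusted p = 0.11).

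Against leaves grown at light 700, 16 genes differed at day 0.6, 13 higher and 3 lower (53.4% of all loci called), and 19 at day 2.57, 17 higher and 2 lower (46.3%). Both shares of the 35 genes lie near the background, as do the 23 and 27 genes whose replicates did not overlap with those of light 700 (77.7% and 77.1% of all loci). Within them, 7 of 8 carriers and 3 of 3 ATP synthase genes were higher on both days, and 1 of 12 photosystem I genes (PSAG) was higher. Of 12 photosystem II genes, 2 were higher and 1 lower at day 0.6, and 6 were higher and 1 lower at day 2.57. The rises of PSBO2, PSBQ1, PSBTN and PSBY at day 2.57 were lost without replicate 2 of light 700. Of all loci, 26.8% at day 0.6 and 24.1% at day 2.57 were higher. Without replicate 2 of light 700, FNR1, FNR2, PETM and ATPG lost the call at day 2.57, and FNR1, ATPC1 and ATPG at day 0.6. At day 2.57 FNR2 and ATPG also lost it with total counts and without replicate 1 of light 700 or either replicate of that day. ATPG lost it there without either replicate of light 100 as well, and FNR1 with total counts. At day 0.6 FNR1 and ATPG also lost it with total counts and without replicate 1 of light 700. FNR1 lost it without replicate 2 of day 0.6 as well. Another gene overlaps PSAG on the opposite strand over 479 bases, which makes its level uncertain. ATPD was at 990.2 and 1017 CPM at light 100, 532 and 483 at light 700, 838 and 1013 at step day 0.6 and 1053 and 978 at day 2.57. It was higher than at light 700 by 0.89 ± 0.11 and 1.01 ± 0.11 (edgeR adjusted p = 3.86e-05 and 2.06e-05). PETC was higher by 0.59 ± 0.13 and 0.51 ± 0.13, but at day 2.57 it missed the threshold with total counts (edgeR adjusted p = 0.0699) and without replicate 2 of light 700 (0.0781). PSAG missed it on both days with total counts (0.476 and 0.315) and without either replicate of light 700, and at day 2.57 also without replicate 1 of that day. The fall of PSBQ2 at day 0.6 was lost without replicate 1 of light 700 (0.0699). PSB27 was higher by 0.95 ± 0.11 and 1.13 ± 0.11. These comparisons share the replicates of light 100 and 700 with those of growth light.

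The directions against light 700 moved with the scaling. With total counts the median over all loci was -0.25 at day 0.6 and -0.27 at day 2.57, and 32.5% and 27.7% of all calls were higher instead of 50.2% and 52.1%. Then 10 of the 35 genes were higher and 13 lower at day 0.6, and 9 higher and 10 lower at day 2.57. Among carriers 6 were higher and 1 lower at day 0.6 and 4 were higher at day 2.57, and 2 of 3 ATP synthase genes were higher on both days. Of photosystem I, 8 and 7 genes were then lower and none higher. PSB28, PSB27, FD1, FD2, PETE2, PETM, ATPC1 and ATPD were higher on both days under either scaling, and PSAD2 and PSBQ2 lower. The count at day 2.57 was 9 without replicate 2 of light 700. The mesophyll marker sum was higher after the step, 31800 to 38200 CPM at day 0.6 and 41100 to 42900 at day 2.57, and 3 of 3 markers rose over light 700. The old-leaf gene SAG12 was from 0 to 0.501 CPM at day 0.6 and from 6.47 to 25.8 at light 700. PYK10 was higher than at light 700 by 3.82 and 2.99 on the log2 scale, with root sums of 24.6 to 37.6 CPM at day 0.6 and 9.20 to 26.1 at day 2.57. The companion cell sum was 141 to 147 CPM at day 0.6 and 183 to 216 at day 2.57, and the guard cell sum 91.3 to 97.3 and 80.8 to 81.0. Their part in the result was not tested.

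From step day 0.6 to day 2.57 few genes changed: PSAD2 rose by 0.90 ± 0.11, FD1 by 0.50 ± 0.11 and PSBY by 0.38 ± 0.10 (edgeR adjusted p = 0.000394, 0.0121 and 0.0244), where 15.2% of all loci passed, 7.63% upward and 7.56% downward. The replicates of the step days did not overlap for 19 of the 35 genes, against 54.4% of all loci. That share, and the share of the 35 genes that rose, lie near those of all loci. PSBY was at 929.5 and 851 CPM at day 0.6 and 1183 and 1157 at day 2.57. With total counts FNR2 was lower as a 4th call, and 40.0% of all calls were higher instead of 50.2%. The call for PSBY was lost without any 1 replicate of light 100, light 700 or day 2.57 (edgeR adjusted p from 0.0527 to 0.101), and that for FD1 without replicate 2 of day 2.57 (0.0944). The count rests on single replicates. It was 8 without replicate 1 of day 0.6, with 5 lower, and 14 without replicate 2, all higher, and 2 without any 1 of the other 6 replicates of the step set.

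**Figure D3:**
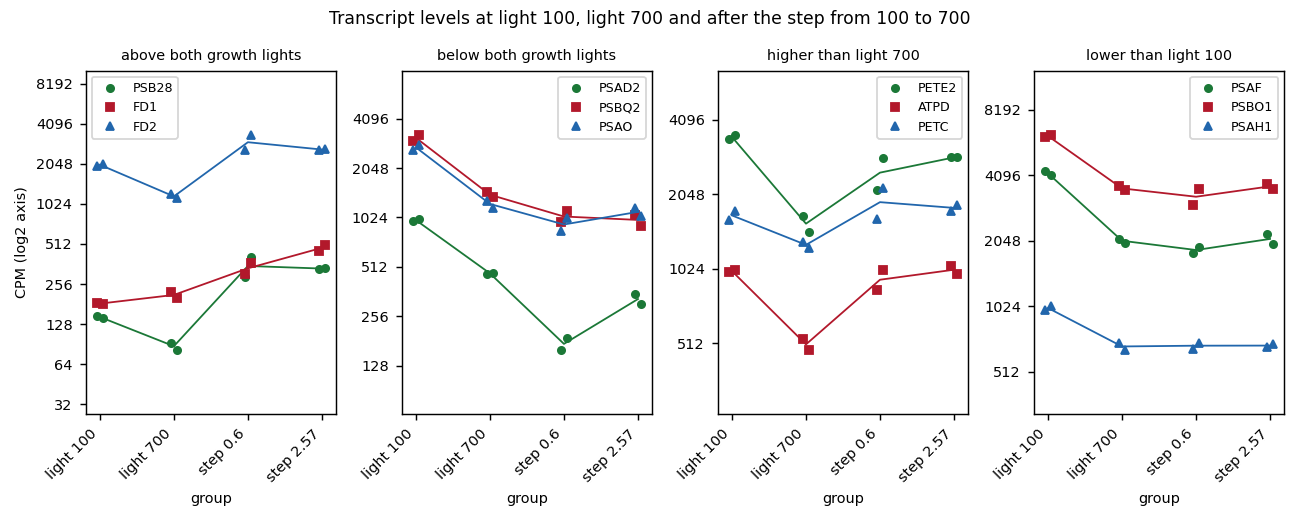
Points are replicates and lines join group means, on a log2 axis of CPM. PSB28, FD1 and FD2 stand above both growth lights after the step, PSAD2, PSBQ2 and PSAO below both, ATPD near light 100, and PSAF, PSBO1 and PSAH1 near light 700. The levels are those of the common scaling. With total counts PSAF, PSBO1 and PSAH1 were lower at step day 2.57 than at light 700.

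**Figure D4:**
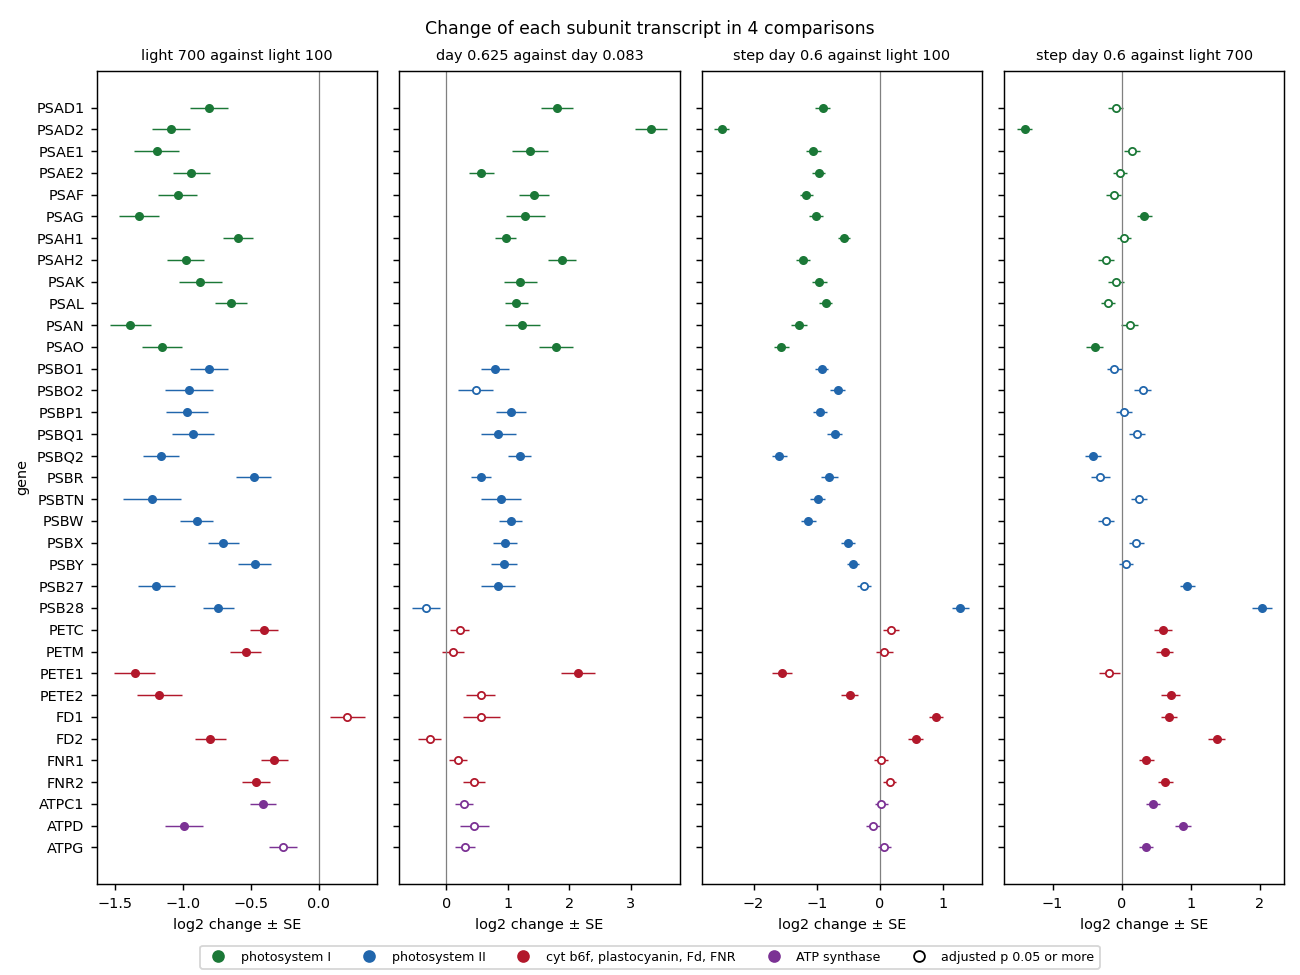
Points are log2 changes with standard errors in 4 comparisons, filled where the adjusted p was under 0.05. All 24 photosystem genes lie left of 0 at light 700 against light 100, and in the last panel the carriers and ATP synthase genes lie right of 0 except PETE1.

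Genes in pairs. In 8 cases a pair of genes encodes one protein, and the ratio of their counts in a library is free of scaling. The ratios were tested over the groups of each set by permutation of the group labels, exact for growth light and the step, where the smallest possible p was 0.00952. Of 24 tests, 16 passed after adjustment over all 24: 3 of 8 pairs over growth light, 5 over time of day and 8 over the step. A range below is the difference between the highest and lowest group mean of the log2 ratio, and the adjusted p-values of ratios are from this permutation test. Gene coordinates are those of RefSeq assembly TAIR10.1.

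Subunit D of photosystem I forms the docking site of ferredoxin. PSAD1 (AT4G02770, chr4:1229031-1230164, minus strand) and PSAD2 (AT1G03130, chr1:753307-754262, minus strand) are 86.0% identical over 650 bases, so reads may have been split between them, which makes both levels uncertain. PSAD1 stood at 2658 and 2633 CPM at light 100, 2164 and 2060 at light 250, 1555 and 1110 at light 450, then 1540 and 1502 at light 700. PSAD2 stood at 976 and 996 CPM at light 100, 760.4 and 732 at light 250, 456 and 314 at light 450, then 464 and 471 at light 700. Both were highest at light 100 in both replicates. PSAD1 through the time points was at 534 and 469.6 CPM (day 0.083), 452 and 376 (0.25), 722 and 565 (0.375), 1902 and 1579 (0.625), 1365 and 974 (0.75) and 614 and 1038 (0.916). PSAD2 through the time points was at 63.1 and 48.6 CPM (day 0.083), 32.7 and 33.0 (0.25), 164 and 126 (0.375), 634 and 486 (0.625), 255 and 194 (0.75) and 95.1 and 152 (0.916). Both genes were lowest at day 0.25 and highest at day 0.625, and PSAD2 spanned the wider range. PSAD1 after the step was at 1265 and 1551 CPM (day 0.6) and 1569 and 1450 (day 2.57). PSAD2 after the step was at 160 and 188 CPM (day 0.6) and 348 and 304 (day 2.57). The ratio of PSAD1 to PSAD2 varied by 0.37 log2 units (adjusted permutation p = 0.019) over growth light, 2.01 log2 units (adjusted permutation p = 0.00184) over time of day and 1.59 log2 units (adjusted permutation p = 0.019) over the step set. It was lowest at light 100 and highest at day 0.25. PSAD1 at step day 0.6 differed from light 700 by -0.09 ± 0.11, and PSAD2 by -1.41 ± 0.11, with its 2 replicates below all 4 growth light replicates.

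Subunit E binds next to subunit D on the stromal side. Its genes are PSAE1 (AT4G28750, chr4:14202758-14204061, minus strand) and PSAE2 (AT2G20260, chr2:8736734-8737767, plus strand), and other genes overlap both on the opposite strand. PSAE1 stood at 2024 and 2119 CPM at light 100, 1505 and 1500 at light 250, 1023 and 659 at light 450, then 956 and 869 at light 700. PSAE2 stood at 581 and 589.6 CPM at light 100, 448 and 450.4 at light 250, 324 and 225 at light 450, then 312 and 303 at light 700. At light 100 both stood above their levels at the other lights. PSAE1 through the time points was at 537 and 433 CPM (day 0.083), 509 and 447 (0.25), 602 and 487 (0.375), 1317 and 1168 (0.625), 824 and 524 (0.75) and 406 and 778 (0.916). PSAE2 through the time points was at 286 and 247 CPM (day 0.083), 272 and 248 (0.25), 257 and 222 (0.375), 430.2 and 358 (0.625), 358 and 258 (0.75) and 229 and 335 (0.916). PSAE1 had the larger span. PSAE1 after the step was at 900.1 and 1094 CPM (day 0.6) and 1040 and 997 (day 2.57). PSAE2 after the step was at 276 and 322 CPM (day 0.6) and 259 and 258 (day 2.57). Their ratio differed by 0.26 log2 units (adjusted permutation p = 0.0538) over growth light, 0.80 log2 units (adjusted permutation p = 0.0373) over time of day and 0.41 log2 units (adjusted permutation p = 0.019) over the step set. The call over time of day was lost without 1 replicate in 7 of 12 cases.

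Subunit H lies at the LHCII docking site. PSAH1 (AT3G16140, chr3:5467987-5469594, minus strand) and PSAH2 (AT1G52230, chr1:19454798-19455668, plus strand) are 87.4% identical over 435 bases, and genes of the other strand overlap both, which leaves these levels uncertain too. PSAH1 stood at 980.4 and 1028 CPM at light 100, 948 and 921 at light 250, 713 and 573 at light 450, then 692 and 645 at light 700. PSAH2 stood at 1232 and 1283 CPM at light 100, 955 and 1013 at light 250, 654 and 476 at light 450, then 687 and 596 at light 700. Per kilobase of exon, PSAH1 stood at 773 CPM and PSAH2 at 1791 in light 100 leaves, and at 514 and 914 in light 700 leaves, so PSAH2 fell further. PSAH1 through the time points was at 437 and 396 CPM (day 0.083), 459 and 429 (0.25), 510.4 and 447 (0.375), 832 and 786 (0.625), 600.3 and 484 (0.75) and 382 and 553 (0.916). PSAH2 through the time points was at 239 and 204 CPM (day 0.083), 224 and 198 (0.25), 391 and 326 (0.375), 820.4 and 799 (0.625), 456 and 362 (0.75) and 229.6 and 395 (0.916). PSAH2 spanned 3.84-fold and PSAH1 1.94-fold between time point means. PSAH1 after the step was at 652 and 696 CPM (day 0.6) and 666 and 683 (day 2.57). PSAH2 after the step was at 499 and 579 CPM (day 0.6) and 712 and 649.9 (day 2.57). Between groups the ratio ranged over 0.52 log2 units (adjusted permutation p = 0.019) over growth light, 1.07 log2 units (adjusted permutation p = 0.00184) over time of day and 0.65 log2 units (adjusted permutation p = 0.0326) over the step set. The growth light call was lost without replicate 2 of light 250 or of light 450, and the step call without replicate 1 of day 0.6.

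PsbO stabilizes the manganese cluster that oxidizes water. Its genes are PSBO1 (AT5G66570, chr5:26568572-26570461, plus strand) and PSBO2 (AT3G50820, chr3:18890874-18892508, minus strand). PSBO1 stood at 6133 and 6256 CPM at light 100, 5078 and 4959 at light 250, 3562 and 2635 at light 450, then 3631 and 3485 at light 700. PSBO2 stood at 1215 and 1254 CPM at light 100, 947 and 924 at light 250, 634 and 384 at light 450, then 674 and 607 at light 700. Per kilobase of exon, PSBO1 stood at 4108 CPM and PSBO2 at 930.3 at light 100. PSBO1 through the time points was at 2548 and 2200 CPM (day 0.083), 2540 and 2291 (0.25), 2555 and 2219 (0.375), 4386 and 3803 (0.625), 3441 and 2482 (0.75) and 2002 and 3175 (0.916). PSBO2 through the time points was at 592 and 491 CPM (day 0.083), 582 and 518 (0.25), 605 and 463 (0.375), 817 and 686 (0.625), 771 and 485 (0.75) and 425 and 791 (0.916). Replicates of day 0.75 and 0.916 were far apart in both genes. PSBO1 after the step was at 2988 and 3528 CPM (day 0.6) and 3721 and 3550 (day 2.57). PSBO2 after the step was at 684 and 869 CPM (day 0.6) and 938 and 888 (day 2.57). The log2 ratio spanned 0.31 log2 units (adjusted permutation p = 0.114), 0.33 log2 units (adjusted permutation p = 0.141) and 0.48 log2 units (adjusted permutation p = 0.019) in the same order of sets. At step day 2.57 PSBO2 was above light 700 by 0.52 ± 0.12 (edgeR adjusted p = 0.00363) and PSBO1 differed by 0.04 ± 0.11. The PSBO2 call was lost without replicate 2 of light 700 (edgeR adjusted p = 0.0721), and with total counts PSBO1 was lower, at -0.23 (edgeR adjusted p = 0.0353). Without replicate 1 of light 450 the growth light ratio passed, at a range of 0.452.

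PsbQ is another protein of the oxygen-evolving complex, encoded by PSBQ1 (AT4G21280, chr4:11334352-11335815, plus strand) and PSBQ2 (AT4G05180, chr4:2671523-2673243, minus strand), whose promoters with 2 G-boxes each are printed above. PSBQ1 stood at 1775 and 1814 CPM at light 100, 1439 and 1411 at light 250, 943 and 632 at light 450, then 1015 and 889.9 at light 700. PSBQ2 stood at 3005 and 3251 CPM at light 100, 2369 and 2397 at light 250, 1424 and 1063 at light 450, then 1453 and 1362 at light 700. Per kilobase of exon, mean PSBQ1 was 1800 CPM and PSBQ2 2461 in light 100 leaves, then 955 and 1107 in light 700 leaves. PSBQ1 through the time points was at 719 and 605 CPM (day 0.083), 734 and 664 (0.25), 774 and 620.3 (0.375), 1234 and 1137 (0.625), 1113 and 758 (0.75) and 575 and 1171 (0.916). PSBQ2 through the time points was at 919 and 728 CPM (day 0.083), 902 and 849.6 (0.25), 881 and 747 (0.375), 1965 and 1777 (0.625), 1177 and 928 (0.75) and 761 and 1048 (0.916). The ratio over time points passed without either replicate of day 0.916. PSBQ1 after the step was at 979.8 and 1198 CPM (day 0.6) and 1355 and 1303 (day 2.57). PSBQ2 after the step was at 955 and 1120 CPM (day 0.6) and 1064 and 914 (day 2.57). Per kilobase, the order after the step was the reverse, with PSBQ1 at 1092 CPM and PSBQ2 at 816 at day 0.6, and 1333 and 778 at day 2.57. Across groups the ratio spanned 0.23 log2 units (adjusted permutation p = 0.149), 0.54 log2 units (adjusted permutation p = 0.153) and 1.23 log2 units (adjusted permutation p = 0.019) in the same order of sets. Against light 700 at day 2.57, PSBQ1 was higher by 0.49 ± 0.12 (edgeR adjusted p = 0.00423) and PSBQ2 was lower, at -0.50 ± 0.12 (edgeR adjusted p = 0.00405). The rise of PSBQ1 did not pass with total counts or without replicate 2 of light 700 (edgeR adjusted p = 0.0638 and 0.0929), and the fall of PSBQ2 passed under both.

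Plastocyanin carries electrons from cytochrome b6f to photosystem I. Its genes are PETE1 (AT1G76100, chr1:28553883-28554930, minus strand) and PETE2 (AT1G20340, chr1:7042046-7043392, minus strand). Per kilobase of exon, PETE1 stood at 152 CPM and PETE2 at 2592 at light 100. PETE1 stood at 152 and 167 CPM at light 100, 102 and 109.8 at light 250, 72.2 and 48.8 at light 450, then 68.3 and 57.3 at light 700. PETE2 stood at 3429 and 3553 CPM at light 100, 2232 and 2277 at light 250, 1565 and 1040 at light 450, then 1671 and 1447 at light 700. Both fell with growth light. PETE1 through the time points was at 25.4 and 18.6 CPM (day 0.083), 20.4 and 17.0 (0.25), 40.9 and 30.2 (0.375), 97.1 and 96.2 (0.625), 63.8 and 53.6 (0.75) and 27.1 and 51.3 (0.916). PETE2 through the time points was at 1504 and 1283 CPM (day 0.083), 1499 and 1361 (0.25), 1579 and 1282 (0.375), 2124 and 1959 (0.625), 2055 and 1514 (0.75) and 1191 and 2073 (0.916). PETE1 was lowest at day 0.25 and PETE2 changed little by comparison. PETE1 after the step was at 47.5 and 61.6 CPM (day 0.6) and 86.1 and 65.3 (day 2.57). PETE2 after the step was at 2127 and 2882 CPM (day 0.6) and 2888 and 2885 (day 2.57). The ratio varied by 0.23 log2 units (adjusted permutation p = 0.13), 1.86 log2 units (adjusted permutation p = 0.00184) and 1.06 log2 units (adjusted permutation p = 0.019) in the same order of sets. At step day 0.6 PETE2 was above light 700 by 0.71 ± 0.14 (edgeR adjusted p = 0.000823), and PETE1 differed by -0.18 ± 0.15 (adjusted p = 0.345). The step call was lost without either replicate of day 0.6.

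Ferredoxin takes electrons from photosystem I. Its leaf forms are encoded by FD1 (AT1G10960, chr1:3664187-3665040, plus strand), which a neighbouring gene overlaps on the same strand, and FD2 (AT1G60950, chr1:22444307-22445291, plus strand). Per kilobase of exon, FD2 stood at 2047 CPM and FD1 at 214 at light 100. FD1 stood at 184 and 181 CPM at light 100, 219 and 233 at light 250, 216 and 155 at light 450, then 222 and 202 at light 700. FD2 stood at 1987 and 2046 CPM at light 100, 1607 and 1508 at light 250, 1205 and 972 at light 450, then 1207 and 1125 at light 700. FD2 was lower at light 450 and 700 in all replicates than at light 100, and FD1 replicates of light 450 lay on both sides of light 100. FD1 through the time points was at 127 and 131 CPM (day 0.083), 140.3 and 121 (0.25), 214 and 176 (0.375), 203 and 177 (0.625), 239.7 and 167 (0.75) and 105 and 232 (0.916). FD2 through the time points was at 1956 and 1921 CPM (day 0.083), 2273 and 2160 (0.25), 2541 and 2064 (0.375), 1581 and 1623 (0.625), 2001 and 1746 (0.75) and 1535 and 2363 (0.916). The day 0.625 replicates of FD2 were close together, whereas those of day 0.916 were not. FD1 after the step was at 303 and 369 CPM (day 0.6) and 456 and 502 (day 2.57). FD2 after the step was at 2585 and 3370 CPM (day 0.6) and 2617 and 2628 (day 2.57). Both stood higher after the step than at light 700. Their ratio differed by 1.01 log2 units (adjusted permutation p = 0.019), 1.01 log2 units (adjusted permutation p = 0.0326) and 1.01 log2 units (adjusted permutation p = 0.0429) in the same order of sets. In the step set the lowest group was light 100 and the highest step day 2.57. The mean ratio of FD1 to FD2 was 0.183 at step day 2.57, close to 0.182 at light 700. The growth light call was lost without replicate 1 of light 250 or either of light 700, and the time of day call without either replicate of day 0.083, 0.25 or 0.375 or replicate 1 of day 0.625.

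Ferredoxin-NADP reductase passes the electrons on to NADP. Its leaf genes are FNR1 (AT5G66190, chr5:26450964-26453199, minus strand), overlapped on the opposite strand, and FNR2 (AT1G20020, chr1:6942625-6945091, plus strand). FNR1 stood at 1299 and 1405 CPM at light 100, 1300 and 1263 at light 250, 1041 and 901 at light 450, then 1128 and 1040 at light 700. FNR2 stood at 1496 and 1537 CPM at light 100, 1428 and 1337 at light 250, 1077 and 905 at light 450, then 1132 and 1080 at light 700. FNR1 changed by -0.33 ± 0.10 and FNR2 by -0.46 ± 0.10 at light 700, nearer to 0 than any photosystem gene. The call for FNR1 was lost with total counts (edgeR adjusted p = 0.258) and without replicate 2 of light 100 or either of light 700. FNR1 through the time points was at 1024 and 963 CPM (day 0.083), 1064 and 1086 (0.25), 1035 and 959 (0.375), 1170 and 1091 (0.625), 1309 and 1090 (0.75) and 939.8 and 1224 (0.916). FNR2 through the time points was at 984 and 952 CPM (day 0.083), 1186 and 1182 (0.25), 1100 and 978 (0.375), 1346 and 1283 (0.625), 1376 and 1077 (0.75) and 924 and 1348 (0.916). Their time point means spanned 1.21-fold and 1.36-fold. FNR1 after the step was at 1236 and 1497 CPM (day 0.6) and 1452 and 1564 (day 2.57). FNR2 after the step was at 1550 and 1823 CPM (day 0.6) and 1395 and 1416 (day 2.57). Between groups the ratio ranged over 0.14 log2 units (adjusted permutation p = 0.0963), 0.26 log2 units (adjusted permutation p = 0.0736) and 0.41 log2 units (adjusted permutation p = 0.019) in the same order of sets. In the step set it was lowest at step day 0.6 and highest at day 2.57. The time of day ratio passed without either replicate of day 0.916.

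**Figure D5:**
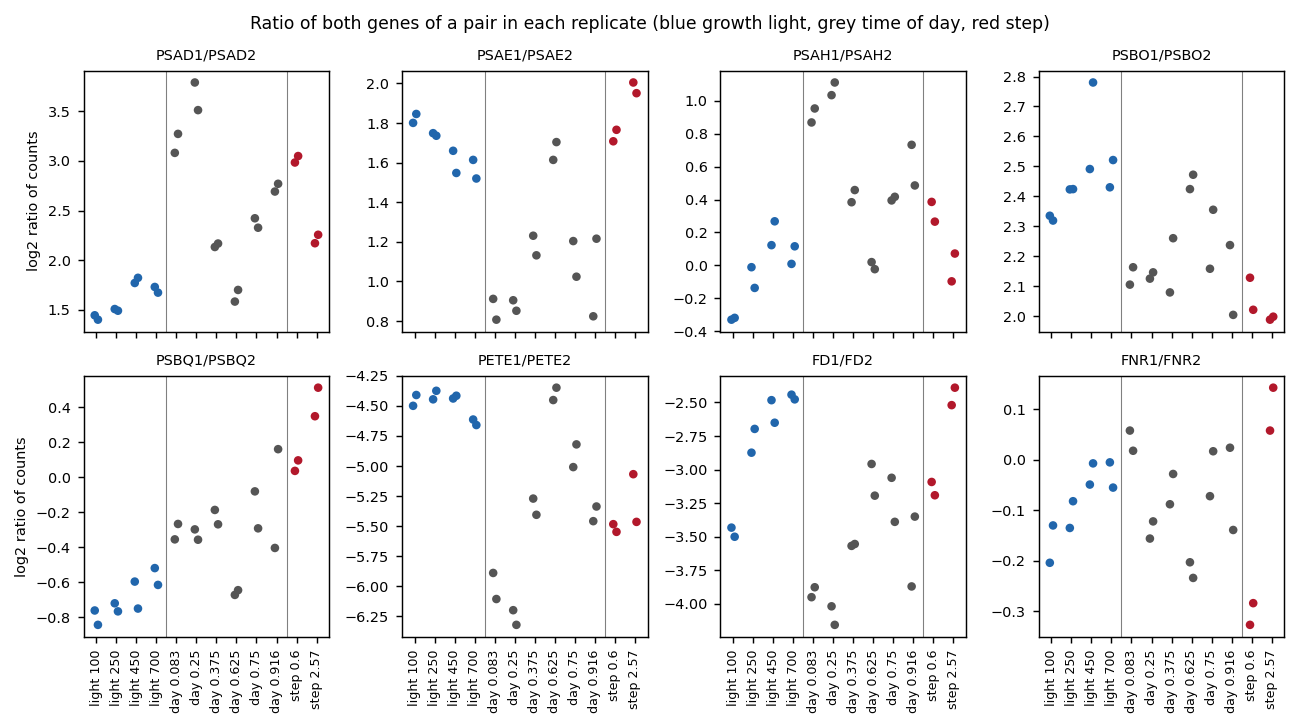
Each point is the log2 ratio of the counts of both genes of a pair in 1 replicate, blue for growth light, grey for time of day and red for the step. PSAD1/PSAD2 and PETE1/PETE2 span 2.01 and 1.86 log2 units over time of day, and PSBQ1/PSBQ2 is higher in the 4 step replicates than in any replicate of growth light.

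Other genes of the pathway. Shares of all loci stand beside each count. Of 31 chloroplast-encoded subunit loci, 24 were tested over growth light and 4 fell at light 700 (20.3% of all loci fell), with a median log2 change of -0.51. At light 450, 11 of the 24 fell (22.3% of all loci), with a median of -0.74. At light 250, 1 fell (14.4% of all loci), with a median of -0.37. None of the 25 tested passed over time of day (60.0% of all loci passed), and at step day 2.57 9 of 25 were higher than at light 700 (24.1% of all loci). All chloroplast-encoded loci together took from 0.33% to 0.95% of the counts of a replicate. Median levels of the 31 loci ran from 0 CPM (petN) to 161 CPM (psbA). With counts this low, the lack of calls over time of day does not show that these transcripts stayed level. Among 23 other nuclear genes of electron transport, 12 fell and 4 rose at light 700 (20.3% and 19.7% of all loci). PGRL1B rose most, a gene of cyclic electron flow around photosystem I, at 0.78, and AT1G51400 fell furthest, at -1.40. Among 12 genes of photosystem assembly, 11 fell at light 700 (20.3% of all loci) with a median of -0.36, LQY1 furthest at -1.52. At step day 2.57 all 12 were higher than at light 700 (24.1% of all loci), with a median of 0.73. Among 20 antenna genes, 19 fell at light 700 (20.3% of all loci) with a median of -1.16, and LHCB4.3 rose by 1.90. From day 0.083 to 0.625, 18 of the 20 rose (19.9% of all loci), LHCB2.2 most at 4.04, and 2 did not pass, of which LHCB4.3 was at -0.24.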

How the data were processed

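Leaf RNA was sequenced on 2 lanes per replicate. The authors deposited raw read counts per transcript for each lane in 3 tables, per the file headers. Bowtie2 and TAIR10 are named per the submitters' processing notes. The counting tool and its strand setting are not given in the sources used here, so reads of overlapping genes and of near copies may be mixed. Of the small counts from 1 to 10, 70.4% were even, so reads may have been counted in pairs. One table held each row 2 times, and 1 copy was kept. The 12 columns found in more than one table were identical, and 0 columns were left out. For step day 2.57, 2 lane 1 columns carry the same replicate number. Each was summed with the lane 2 column from which it differed by a variance ratio of 1.91, against 7.14 to 7.16 for the other, and lane 2 alone does not use them.

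Transcripts and lanes were summed per locus. The tests used edgeR 4.0.16 in R 4.3.3 (quasi-likelihood, TMM scaling, filterByExpr), fitted separately over growth light, time of day and step groups, p-values being adjusted by Benjamini-Hochberg over every locus in the fit, at a threshold of 0.05. DESeq2 1.42.0, other scalings and filters, single lanes, a replicate block and each replicate left out were alternatives. Pair ratios were tested by permutation of replicates over groups, with 100000 permutations for time of day. In simulated counts with 200 loci changed by 2-fold, between 59% and 80.5% were recovered, and false calls made up 4.07% to 13% of calls, the latter for step day 0.6 against light 700. Near copies were sought at 85% identity over at least 100 bases, and 4 genes had one.

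The genes and lists were chosen with earlier results of these data known. Values per replicate are given for both genes of each pair and, in each comparison, for the 2 largest rises and 2 largest falls past the threshold. PSB27, PSAL, PSAO, ATPD and the smallest changes were named for their role or after their values were seen.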

Additional observations from a re-analysis of the deposited data

How the results depend on the processing

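The growth light counts at light 450 and 700 and both counts against light 100 after the step stayed within 1.5 times under all alternatives run. The number of the 35 genes past the threshold was less stable elsewhere. At light 250 it was 26 with only the groups compared, and 2 to 26 with a replicate left out. Over time of day it was 29 without day 0.916, an alternative chosen after seeing the data, and 11 to 30 with a replicate left out. At day 0.625 against 0.083 it was 14 to 28 with a replicate left out. At day 0.75 against 0.25 it was 21 with total counts, 14 without day 0.916, and 4 to 14 with a replicate left out. At step day 2.57 against light 700 it was 9 to 23 with a replicate left out. Between the step days it was 6 with DESeq2, 5 with no filter, 1 with only the groups compared, and 2 to 14 with a replicate left out. Pair tests past the threshold numbered 14 to 19 with a replicate left out. Calls with the opposite sign were FD1 at light 450 without replicate 1 of light 450 (-0.26; without replicate 2 it was 0.24), and, with total counts at step day 2.57 against light 700, PSAF (-0.23), PSAH1 (-0.24) and PSBO1 (-0.23). The cause was not tested. Of 8435 member values recomputed, 7904 kept their call, 248 lost it, 279 gained it and 4 reversed. Over all loci, light 250 gave 5926 calls and 3433 to 3798 without replicate 1 of light 100 or either of light 250. The slope gave 7807 calls, and 4520 or 4865 without either replicate of light 100. The step days gave 3137, and 1586 with only the groups compared, 5026 without replicate 1 of day 0.6, and 1617 or 1185 without either replicate of day 2.57. Replicate numbers did not pair the samples, since correlations ran from -0.04 to 0.15 over growth light, from -0.55 to 0.20 over time of day and from -0.10 to 0.09 over the step. With a replicate block the counts were 14, 34, 34 and 33 over growth light, 17, 22 and 7 over time of day, and 27, 25, 17, 19 and 3 over the step, all within 1.5 times.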
